A study of Mus musculus with 2 samples.

Results

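The cells described here are fibroblast-like cells of mouse epididymal fat that carry transcripts of Col15a1, the gene of the alpha-1 chain of type XV collagen, and that go by the working name of committed preadipocytes. They were chosen by thresholds on their own UMI counts (unique molecular identifiers, 1 per captured transcript). A barcode needed at least 500 genes, at most 20% mitochondrial UMIs, at least 1.5% of UMIs in 9 stromal genes (Dcn, Col1a1, Col1a2, Col3a1, Lum, Clec3b, Serpinf1, Dpt and Mfap5) and under 0.3% in the macrophage genes C1qa, C1qb and C1qc. It also needed no UMI of Pi16 or Dpp4, under 0.1% of UMIs in F3 and Gdf10, and at least 0.05% in Col15a1. The rule found 847 Col15a1 cells among 14205 barcodes, with 440 of 7365 in the library of mice on a normal chow diet (NCD) and 407 of 6840 in the library of mice on a high fat diet (HFD). The cells called reference below passed the same clauses but held 0 Col15a1 UMIs, and numbered 390 (NCD) and 638 (HFD). Both libraries came from the stromal vascular fraction, the cells left when fat tissue is digested and adipocytes are removed, of epididymal white adipose tissue of male C57BL/6J wild type mice of 18 weeks. One group was kept on NCD and the other on HFD for 12 weeks, and there was 1 droplet-based 3' library (10x Genomics) per diet. The labels do not say how many mice were pooled. With 1 library per diet there was no replicate and no test, and diet and library cannot be told apart.

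Adipocytes arise from PDGFRA-positive fibroblast-like progenitors in the stroma of the fat pad. Progenitors with Pi16 and Dpp4 lie in a fluid-filled connective tissue around the lobules, while cells with more Col15a1, Lpl and Pparg are regarded as further along the path to the adipocyte. Type XV collagen sits at the outer face of basement membranes, the thin sheets of type IV collagen, laminin, nidogen and perlecan that surround each adipocyte and each capillary. A maturing preadipocyte exchanges a fibrillar surrounding for such a sheet.

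The genes on which the description turns include the paired genes of type IV collagen, so their start regions are shown first, from RefSeq on GRCm38.p6, each read 5′ to 3′ on the gene's strand from 250 bases before to 50 bases after the annotated start. Col4a1 and Col4a2 code for the 2 chains of the common type IV collagen trimer and lie head to head on chromosome 8. Capitals in their windows mark the 78 bases that both windows share, 1 copy being the reverse complement of the other.
Col4a1, chr8:11312777-11313076, minus strand: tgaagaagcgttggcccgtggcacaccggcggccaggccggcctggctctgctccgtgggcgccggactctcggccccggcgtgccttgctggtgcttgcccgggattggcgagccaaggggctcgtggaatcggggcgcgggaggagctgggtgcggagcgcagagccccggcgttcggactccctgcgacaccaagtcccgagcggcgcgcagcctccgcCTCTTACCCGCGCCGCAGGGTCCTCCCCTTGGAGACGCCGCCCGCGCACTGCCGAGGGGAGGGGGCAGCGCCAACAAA
Col4a2, chr8:11312555-11312854, plus strand: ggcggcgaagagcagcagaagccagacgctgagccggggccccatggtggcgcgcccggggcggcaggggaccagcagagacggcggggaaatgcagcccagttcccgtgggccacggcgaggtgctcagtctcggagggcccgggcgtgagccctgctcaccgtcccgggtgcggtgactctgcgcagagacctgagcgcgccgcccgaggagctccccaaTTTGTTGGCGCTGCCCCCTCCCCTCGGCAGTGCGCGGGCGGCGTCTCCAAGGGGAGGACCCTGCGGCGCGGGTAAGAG
The windows of Hspg2, the gene of perlecan, and of Col15a1 both lie on chromosome 4. Capitals in the Hspg2 window mark its GC boxes (GGGCGG on this strand, CCGCCC on the other).
Hspg2, chr4:137468553-137468852, plus strand: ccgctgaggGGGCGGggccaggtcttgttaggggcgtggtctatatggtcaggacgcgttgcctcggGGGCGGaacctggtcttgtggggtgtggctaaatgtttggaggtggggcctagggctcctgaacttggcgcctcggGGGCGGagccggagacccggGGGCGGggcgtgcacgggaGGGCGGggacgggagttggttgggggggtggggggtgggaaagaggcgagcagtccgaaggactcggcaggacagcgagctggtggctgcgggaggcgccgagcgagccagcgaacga
Col15a1, chr4:47207762-47208061, plus strand: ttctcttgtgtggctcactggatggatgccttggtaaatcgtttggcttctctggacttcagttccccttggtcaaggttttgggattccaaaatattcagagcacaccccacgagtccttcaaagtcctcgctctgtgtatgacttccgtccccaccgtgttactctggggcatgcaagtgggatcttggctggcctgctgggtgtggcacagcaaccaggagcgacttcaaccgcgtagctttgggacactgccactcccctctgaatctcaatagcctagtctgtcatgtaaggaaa
The GC box was found 5 times in the Hspg2 window, 3 times in that of Col4a2, 1 time in that of Col4a1 and 0 times in that of Col15a1, and 35.7% of the 32851 mouse start windows of this length held it on either strand. The GC content was 70.3% for Hspg2, 73.7% for Col4a2, 74.0% for Col4a1 and 52.3% for Col15a1, beside a median of 52.7% over all windows. CCAAT (or ATTGG) was found 1 time in each of the paired Col4a1 and Col4a2 windows and not in the others, and 37.4% of all windows held it. These matches describe the letters only.

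The libraries differed in depth and in free RNA, meaning transcripts of other cells caught in a droplet, and this bears on every value below. The median Col15a1 cell held 4449 UMIs and 1856 genes (NCD) and 1844 UMIs and 921 genes (HFD). The median reference cell held 3766 UMIs (NCD) and 1799 UMIs (HFD). Gated cells with Col15a1 UMIs below the threshold, 507 in NCD and 153 in HFD, were in neither set. A count of 0 Col15a1 UMIs was thus reached at unlike depth, so reference cells of the libraries were not chosen alike. No barcode that passed the filters held fewer than 1556 (NCD) or 1401 (HFD) UMIs. In cells that should lack stromal transcripts, 1969 NCD and 992 HFD barcodes with at least 1% of UMIs in the C1q genes (macrophage cells below), the 9 stromal genes stood at a median of 4.34% of their whole-library level (NCD) and 18.4% (HFD). In the other direction, 8 macrophage genes stood in Col15a1 cells at a median of 2.66% (NCD) and 18.7% (HFD) of their library level, and in reference cells at 3.90% and 29.3%. Both measures, taken as a guide to free RNA, were higher in the HFD library. The second was higher in reference cells than in Col15a1 cells. The limits on stromal and C1q genes by which the cells were chosen bound both measures. The libraries had 64 barcodes in common, and no barcode was a Col15a1 cell in both.

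Col15a1 itself was read at 877 CPM (UMIs of the gene per 1000000 UMIs summed over the cells) over the NCD Col15a1 cells and 901 CPM over the HFD Col15a1 cells, which is what the rule asked for. Over all 1337 NCD and 1198 HFD cells that passed every other clause it stood at 412 and 370 CPM, and in macrophage cells at 6.01 and 35.2 CPM. The median Col15a1 cell held 4 Col15a1 UMIs (NCD) and 2 (HFD). In a cell of up to 2000 UMIs a single Col15a1 UMI meets the threshold, and 19 of 440 NCD cells and 174 of 407 HFD cells were chosen on 1 UMI. A Col15a1 UMI was also present in 1.83% (95% interval 1.28 to 2.52) of NCD macrophage cells, at a median depth of 3830 UMIs, and in 10.8% (8.92 to 12.9) of those of the HFD library, at 2252 UMIs. The threshold runs through a continuous range of values. Just outside it, at 0.04 to 0.05% of UMIs, lay 127 NCD and 69 HFD cells with medians of 2 and 1 Col15a1 UMIs, and just inside it, at 0.05 to 0.06%, lay 89 and 105 cells with medians of 3 and 1.

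**Figure D1:**
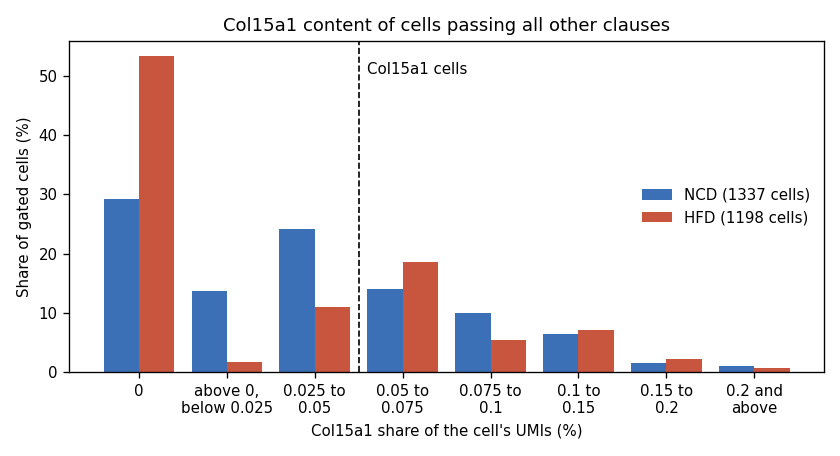
Share of gated cells (y axis, %) by the Col15a1 share of each cell's UMIs (x axis, %) for the 1337 NCD and 1198 HFD cells that passed every clause but that on Col15a1. The dashed line is the threshold of 0.05%, and 29.2% of NCD and 53.3% of HFD cells held 0 Col15a1 UMIs.

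Col15a1 cells were a like share of the gated stromal cells in both libraries. They made up 32.9% of them in NCD (440 of 1337, exact 95% interval 30.4 to 35.5) and 34.0% in HFD (407 of 1198, 31.3 to 36.7), a log2 ratio of 0.05. All intervals in the text are exact (Clopper-Pearson for shares, Poisson for sums, conditional binomial for ratios) and cover counting error only. With every cell thinned to 1400 UMIs, 39.9% (37.2 to 42.5) of gated NCD cells and 35.1% (32.4 to 37.8) of gated HFD cells kept at least 1 Col15a1 UMI. With the Col15a1, Pi16, Dpp4, F3 and Gdf10 clauses applied to the thinned cells the shares were 34.2% and 34.7%. Among cells of at least 2000 UMIs the shares were 32.3% and 28.9%, so the order of the libraries was not the same in all settings. Of all barcodes that passed the gene and mitochondrial filters, Col15a1 cells were 5.99% (5.46 to 6.56) and 6.00% (5.44 to 6.59).

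The working name was checked against Pdgfra, Lpl and Pparg, which the rule did not use. Lpl, the lipase that frees fatty acids from circulating lipoproteins, stood at 1332 CPM in Col15a1 cells and 897 CPM in reference cells of the NCD library, and at 2278 and 1398 CPM in the HFD library, ratios of 1.49 (1.39 to 1.59) and 1.63 (1.53 to 1.74). It was present in 91.4% of NCD and 86.7% of HFD Col15a1 cells, or in 72.5% and 81.3% after thinning to 1400 UMIs. HFD macrophage cells also held Lpl, at 2090 CPM and in 79.6% of cells, so in that library it does not set stromal cells apart. Pdgfra, the receptor that marks adipose progenitors, was present in 68.6% of NCD and 39.1% of HFD Col15a1 cells, and in 2.08% and 4.44% of macrophage cells. After thinning Pdgfra was present in 34.5% and 29.0% of Col15a1 cells and 0.559% and 2.82% of macrophage cells. Its level was 308 CPM beside 281 CPM in reference cells (NCD) and 241 beside 183 CPM (HFD), and only the HFD ratio of 1.32 (1.10 to 1.59) had an interval clear of 1. Pparg, the nuclear receptor that commits cells to the adipocyte fate, was sparse, at 25.0 CPM beside 14.8 CPM in the reference (NCD) and 17.9 beside 15.2 CPM (HFD). A Pparg UMI was found in 10.2% (7.56 to 13.4) of NCD Col15a1 cells and 3.30% of macrophage cells at 3830 UMIs. In the HFD library it was found in 3.69% (2.08 to 6.01) of Col15a1 cells at 1844 UMIs and 7.76% of macrophage cells at 2252 UMIs. HFD macrophage cells held 27.4 CPM of Pparg, more than either stromal set, so they give no background for it. The HFD ratio of Pparg to reference cells had an interval (0.582 to 2.38) that included 1. After thinning Pparg was present in 3.64% (NCD) and 1.72% (HFD) of Col15a1 cells and in 1.12% and 2.82% of macrophage cells. All 3 of these genes were present in 34 of 440 NCD and 7 of 407 HFD cells, and none of them in 15 and 40. Reference cells held Lpl in 72.3% (NCD) and 81.5% (HFD) of cells, or in 51.8% and 76.2% after thinning. They held Pdgfra in 56.7% and 27.7%, or in 31.3% and 20.7% after thinning. The name therefore rests on Pdgfra and Lpl, which set Col15a1 cells only partly apart from reference cells. Its Pparg component was hardly measurable at this depth. Summed over the list of 14 adipocyte genes, Col15a1 cells held 29.0 CPM (NCD) and 19.0 CPM (HFD), with 6 and 7 of the genes at 0.

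The contrast of Col15a1 cells with reference cells is the contrast of the rule, so its values are given as a description. Of 7223 genes with at least 10 CPM in both libraries, 10 (0.138%) were at least 2-fold higher in Col15a1 cells in both libraries and 17 (0.235%) at least 2-fold lower. Within single libraries 64 (0.886%) were at least 2-fold higher and 118 (1.63%) lower (NCD), and 240 (3.32%) higher and 134 (1.86%) lower (HFD). At 1.5-fold in both libraries the counts were 101 (1.4%) and 74 (1.02%). The median gene stood at a log2 ratio of 0.01 (NCD) and 0.08 (HFD). Of the 24 genes named by a ranking on the intervals, the 12 that were higher included 5 collagen chains and perlecan, and kept their direction under every alternative tried. Of the 12 that were lower, 7 kept it, and the others are marked where they appear. Subtraction of free RNA was not among the alternatives tried for this contrast, although reference cells held more macrophage transcripts than Col15a1 cells.

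Both chains of type IV collagen were higher in Col15a1 cells. Col4a1 (chr8:11198423-11312826 on GRCm38, as are all gene positions here) stood at 882 CPM beside 562 CPM in reference cells in the NCD library, a ratio of 1.57 (1.45 to 1.70), and at 653 beside 369 CPM in the HFD library, a ratio of 1.77 (1.57 to 1.99). A Col4a1 UMI was present in 90.5% of NCD and 64.4% of HFD Col15a1 cells, or in 70.5% and 51.6% after thinning. Without thinning, reference cells had one in 75.1% and 46.9%, and macrophage cells in 4.32% and 14.2%. Col4a2 (chr8:11312805-11449287) stood at 523 beside 322 CPM (NCD) and 501 beside 262 CPM (HFD), ratios of 1.62 (1.46 to 1.81) and 1.91 (1.66 to 2.21). Hspg2 (chr4:137468769-137570630) stood at 491 beside 314 CPM and 376 beside 218 CPM, ratios of 1.57 (1.40 to 1.75) and 1.73 (1.48 to 2.03). The ranking took only genes with intervals clear of 1 on the same side in both libraries, so the shared direction was a condition of the choice. In each of these genes the ratios of both libraries were of like size.

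The wider list of basement membrane genes leaned the same way. Of 18 genes compared, 12 were higher in both libraries, 2 lower and 4 went opposite ways, beside 32.3% of all genes higher and 22.3% lower in both. The list's median log2 ratio was 0.28 (NCD) and 0.50 (HFD). Pxdn, the peroxidase that crosslinks type IV collagen, stood at 76.6 beside 47.0 CPM (NCD) and 41.1 beside 29.6 CPM (HFD), where the interval (0.869 to 2.23) included 1. Col18a1, the close relative of Col15a1 and the source of endostatin, differed between the libraries. In the NCD library it stood at 71.7 beside 68.2 CPM, with an interval (0.812 to 1.36) that included 1, and it was higher in the HFD library, at 141 beside 61.4 CPM, a ratio of 2.30 (1.73 to 3.07). Col4a4, a chain of the type IV collagen of kidney and other specialised membranes, was low, at 44.7 beside 30.3 CPM (NCD) and 5.27 beside 3.03 CPM (HFD).

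**Figure D2:**
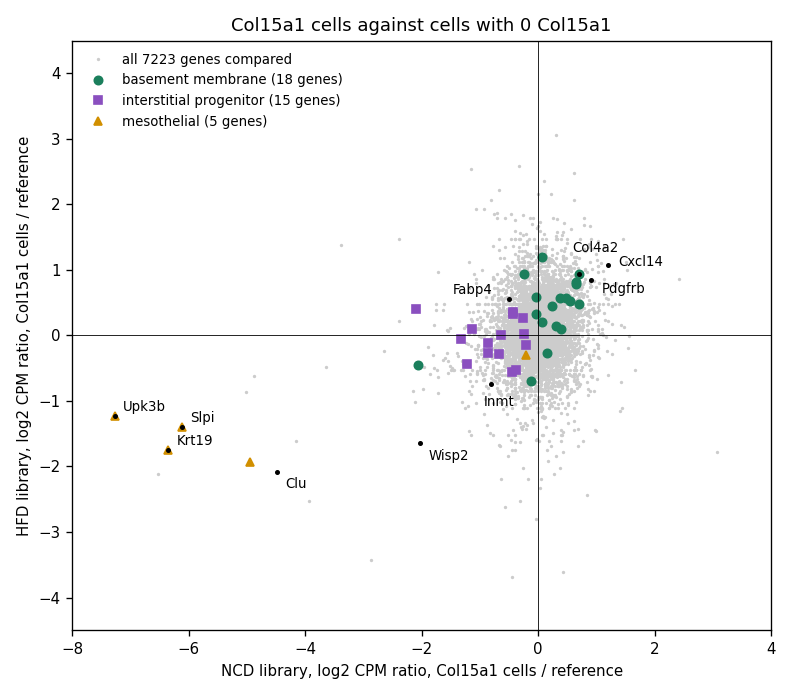
Log2 ratio of CPM in Col15a1 cells over reference cells in the NCD library (x axis) and the HFD library (y axis) for 7223 genes, with a count of 0 set to 3. Green circles are the 18 basement membrane genes (12 higher in both libraries), purple squares the 15 interstitial progenitor genes (0 higher in both) and orange triangles the 5 mesothelial genes (all lower in both).

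Collagens of the pericellular and interstitial matrix were also among the leading genes. Col6a3, a chain of the beaded type VI collagen that links basement membranes to the interstitium, stood at 488 beside 279 CPM in the NCD library, a ratio of 1.75 (1.56 to 1.96), and at 696 beside 346 CPM in the HFD library, a ratio of 2.01 (1.78 to 2.27). Its partner chain Col6a2 stood at 889 beside 562 CPM and 968 beside 560 CPM. Col5a3, a chain of the fibril-nucleating type V collagen, stood at 327 beside 177 CPM and 248 beside 140 CPM. Of 39 genes for interstitial matrix and crosslinking compared, 19 were higher in both libraries, 9 lower and 11 opposite, with medians of 0.13 and 0.33. Over all genes 32.3% were higher in both libraries and 22.3% lower. Emilin1, an elastic fibre glycoprotein, stood at 62.4 beside 34.8 CPM and 95.9 beside 62.9 CPM. Thbs1, thrombospondin 1, an activator of latent TGF-beta, stood at 679 beside 335 CPM in the NCD library, a ratio of 2.02 (1.83 to 2.24), and at 268 beside 209 CPM in the HFD library, a ratio of 1.28 (1.07 to 1.52). Mfap4, a microfibril protein, went the other way, at 17.2 beside 52.1 CPM (NCD) and 71.7 beside 91.0 CPM (HFD), and the HFD interval (0.576 to 1.07) included 1. Creb3l1, a transcription factor released from the endoplasmic reticulum that drives collagen genes, stood at 207 beside 131 CPM and 99.1 beside 43.2 CPM. Spon2, a secreted matrix protein of the spondin family, stood at 161 beside 94.0 CPM and 173 beside 100.1 CPM.

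Secreted signals and receptors included the gene with the largest ranked ratio. Cxcl14 (chr13:56288643-56296551), a chemokine of fat stroma, stood at 244 beside 106 CPM in the NCD library, a ratio of 2.29 (1.92 to 2.75), and at 389 beside 184 CPM in the HFD library, a ratio of 2.11 (1.79 to 2.49). It was patchy. A UMI was present in 25.5% of NCD and 27.8% of HFD Col15a1 cells, against 13.1% and 19.0% of reference cells, and 83 of the 369 HFD UMIs came from 1 cell. Fgf10, a growth factor that promotes fat formation, was low, at 21.6 beside 11.6 CPM and 33.7 beside 10.6 CPM. Bmper, an extracellular modulator of BMP signals, stood at 141 beside 88.8 CPM and 187 beside 114 CPM. Pdgfrb, the receptor shared with pericytes, stood at 142 beside 75.3 CPM and 125 beside 69.7 CPM, ratios of 1.88 (1.51 to 2.36) and 1.80 (1.36 to 2.39). The 12 mural genes (pericytes and smooth muscle) summed to 151 and 137 CPM in Col15a1 cells and 258 and 137 CPM in reference cells. Adam12, a membrane metalloprotease of adipose progenitors, stood at 33.4 beside 13.5 CPM and 60.1 beside 34.9 CPM. Rspo3, an enhancer of WNT signals, was higher in the NCD library, at 79.1 beside 34.1 CPM, and too rare to compare in the HFD library, with 5 UMIs over all Col15a1 cells.

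Of 24 adipogenic transcription factor genes compared, 10 were higher in both libraries, 3 lower and 11 opposite, and the medians were 0.00 and 0.19. Over all genes 32.3% were higher in both libraries and 22.3% lower, which stands beside each count of this paragraph. Twist2, a basic helix-loop-helix factor of mesenchymal cells, stood at 101 beside 62.4 CPM and 40.1 beside 24.3 CPM. Of 23 genes for lipid uptake and storage, 9 were higher, 5 lower and 9 opposite, with medians of 0.02 and 0.21. Scd1, the desaturase that makes monounsaturated fatty acids, stood at 27.0 beside 34.1 CPM (NCD) and 83.3 beside 37.1 CPM (HFD). Scd2 stood at 38.8 beside 29.6 CPM and 33.7 beside 18.2 CPM. Mgll, the monoacylglycerol lipase, was lower in the NCD library, at 5.89 beside 19.96 CPM, and in the HFD library its interval (0.746 to 2.59) included 1. Of the 24 genes listed for committed preadipocytes, 23 could be compared, with 12 higher in both libraries, 3 lower and 8 opposite. Steap4, a metalloreductase from the list of inflammatory fibroblast genes, was higher in both, at 419 beside 274 CPM and 190 beside 133 CPM. Of the 20 genes of that list compared, 3 were higher in both libraries and 10 lower.

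Genes of the interstitial progenitors were never higher in Col15a1 cells in both libraries. The Pi16 and Dpp4 clause removed only cells with a UMI of either gene, so progenitors in which none was caught can remain in both sets. With Pi16, Dpp4, F3 and Gdf10 counted after thinning to 1400 UMIs, more cells passed every clause but that on Col15a1. They numbered 1741 in place of 1337 (NCD) and 1463 in place of 1198 (HFD). Of the 15 progenitor genes compared, 0 were higher, 8 lower and 7 opposite, with medians of -0.63 (NCD) and -0.05 (HFD). Over all genes 32.3% were higher in both libraries and 22.3% lower. Anxa3, an annexin of these progenitors, stood at 113 beside 264 CPM in the NCD library, 2.34 times lower, and at 73.8 beside 100.1 CPM in the HFD library. Pcolce2, an enhancer of procollagen processing, stood at 207 beside 376 CPM and 147 beside 177 CPM, and Cd55, a complement regulator, at 53.5 beside 85.0 CPM and 62.2 beside 75.8 CPM. For both, the HFD interval included 1. Efhd1 was opposite, at 3.93 beside 16.7 CPM and 21.1 beside 15.9 CPM. Wisp2, a WNT target gene of early progenitors, was low but lower in both libraries, at 9.33 beside 38.0 CPM and 9.49 beside 29.6 CPM. Bmp4, which starts adipocyte commitment, stood at 32.4 beside 50.9 CPM and 4.22 beside 13.6 CPM. Sfrp2, a WNT antagonist, stood at 14.2 beside 32.8 CPM and 32.7 beside 69.0 CPM, but its NCD ratio turned the other way at a stromal gate of 3%. Of 7 genes of the F3 and Gdf10 cells compared, 1 was higher in both libraries, 4 lower and 2 opposite, with medians of -0.36 and -0.20. The largest differences were in Fmo2, at 85.0 beside 150.0 CPM and 9.49 beside 26.5 CPM, and Rspo1, at 53.0 beside 125 CPM and 28.5 beside 38.7 CPM. The HFD log2 ratio of Rspo1 was -0.44 and reached 0.05 under an alternative.

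The ranking's lower genes mixed stromal genes with genes of other cells. Inmt, a methyltransferase for small amines, stood at 906 beside 1597 CPM (NCD) and 170 beside 284 CPM (HFD). Sult1e1, the oestrogen sulfotransferase, stood at 1568 beside 1924 CPM and 229 beside 354 CPM. The direction of both in the NCD library depended on the reference: with cells of Pi16, Dpp4, F3 and Gdf10 let in, Inmt had a log2 ratio of 0.39 and Sult1e1 of 0.62. Osr1, a transcription factor of connective tissue progenitors, stood at 121 beside 198 CPM and 64.3 beside 99.3 CPM. Figf, the growth factor VEGF-D, stood at 153 beside 253 CPM and 75.9 beside 115 CPM. Aebp1, a secreted collagen-binding protein, stood at 630 beside 923 CPM and 1037 beside 1318 CPM, and Insig1, a brake on sterol synthesis, at 36.3 beside 56.7 CPM and 99.1 beside 145 CPM. Gas6, the ligand of TAM receptors, stood at 117 beside 219.5 CPM and 98.0 beside 193 CPM, and macrophage cells held 502 and 208 CPM of it.

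The remaining lower genes are abundant in macrophages. Cxcl2 stood at 1695 and 3530 CPM in NCD and HFD macrophage cells, Ccl6 at 5502 and 3226 CPM, Cst3 at 6272 and 3710 CPM, Ifi27l2a at 1087 and 1520 CPM, and Ier3 at 677 and 182 CPM. In Col15a1 cells, Cxcl2 stood at 40.8 beside 92.1 CPM in the reference (NCD) and 263 beside 425 CPM (HFD), and Ccl6 at 57.0 beside 91.4 CPM and 209.8 beside 378 CPM. In the NCD library these genes did not hold their direction under every alternative: Cxcl2 reached 0.39 at a stromal gate of 3%, Ccl6 0.00 after thinning and Cst3 0.36 with a wider reference, in which the Pi16, Dpp4, F3 and Gdf10 limits were dropped. The 15 macrophage genes summed to 792 CPM in Col15a1 cells and 870 CPM in reference cells (NCD), and to 5327 and 7764 CPM (HFD). The part of this difference in the lower genes was not tested.

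Of 12 complement genes, 1 was higher in both libraries, 8 lower and 3 opposite, beside 32.3% and 22.3% of all genes, with medians of -0.48 and -0.18. Clu was the 1 gene past 1.5-fold in both libraries. C2 stood at 42.7 beside 88.8 CPM (NCD) and C4b at 27.5 beside 56.0 CPM, while the HFD intervals of both included 1. Clu, a chaperone made in quantity by mesothelium, stood at 3.44 beside 76.6 CPM and 8.43 beside 35.6 CPM. The 11 mesothelial genes, of the sheet that covers the fat pad, summed to 153 CPM in NCD Col15a1 cells and 855 CPM in NCD reference cells, and to 176 and 368 CPM in the HFD library. Msln was at 0 in Col15a1 cells of both libraries, against 45.7 and 12.1 CPM in reference cells, and Slpi stood at 4.91 beside 342 CPM (NCD). In Col15a1 cells 6 of the 11 genes were at 0 (NCD) and 4 (HFD). With reference cells that held such transcripts left out, 14 genes were past 2-fold in place of 27, Clu in the NCD library moved to a log2 ratio of 0.02 and Slpi in the HFD library to 1.85. That filter was chosen after the values were seen. At a stromal gate of 3%, Slpi in the NCD library moved to 0.16 and Clu in the HFD library to 1.12.

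At equal depth, some genes followed the number of Col15a1 UMIs and most did not. With each gated cell thinned to 1400 UMIs, 804 NCD cells had 0 Col15a1 UMIs, 364 had 1, 122 had 2 and 47 had 3 or more, and the HFD cells numbered 778, 303, 87 and 30. Of 33 genes followed over these 4 bands, 6 were higher in each further band in both libraries (Col4a1, Col6a2, Col6a3, Creb3l1, Hspg2 and Nid1), 1 was lower in each (Inmt), and 26 had no such order. The 33 genes were set by hand and include the 12 ranked higher genes and some of the ranked lower genes. The bands also hold the cells that gave the ranking, so the order describes these genes and is no separate support. The share over all genes was not computed. Col4a1 stood at 662, 797, 907 and 1201 CPM in the NCD library. In the HFD library it stood at 405, 497, 796 and 1119 CPM. Hspg2 stood at 396, 447, 474 and 562 CPM (NCD) and 227, 304, 361 and 667 CPM (HFD), and Col6a3 at 343, 418, 480 and 578 CPM and 385, 585, 673 and 881 CPM. Most neighbouring bands overlapped in their intervals. Lpl stood at 999.5, 1172, 1440 and 1383 CPM (NCD), and at 1447, 1879, 2217 and 2286 CPM (HFD). Inmt ran the other way, at 1401, 1095, 925 and 547 CPM and at 287, 224, 140 and 119 CPM. Cxcl14 had no order in the NCD library, at 146, 230, 141 and 167 CPM, and ran from 219 to 714 CPM in the HFD library. Lamc1, the shared laminin gamma chain, had none in either, at 395, 426, 427 and 350 CPM and at 238, 306, 386 and 238 CPM. Fabp4 had none either, at 790, 842, 375 and 486 CPM and at 912, 1233, 1141 and 857 CPM.

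**Figure D3:**
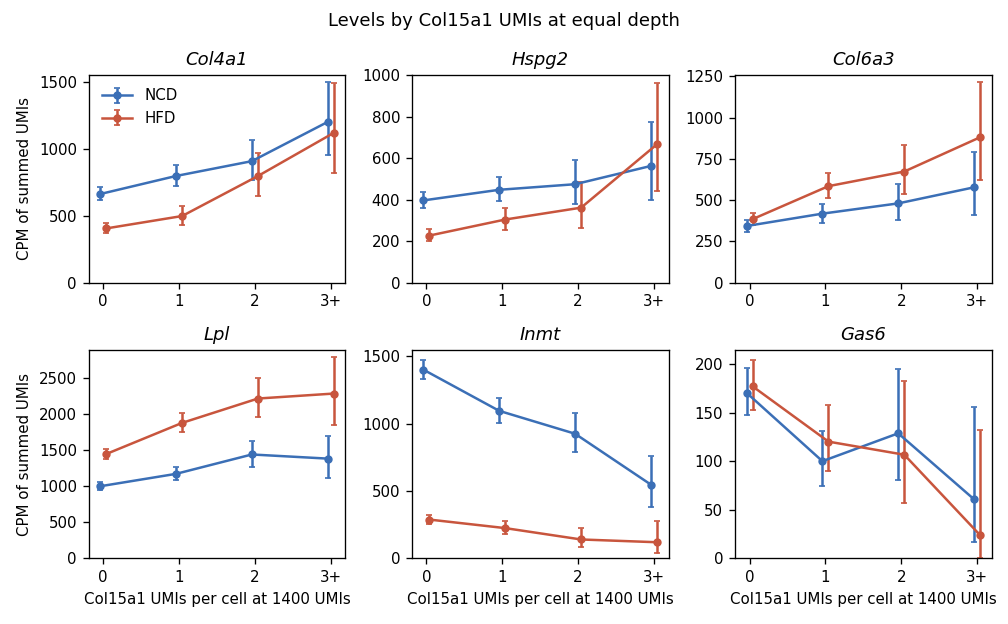
CPM of summed UMIs (y axis) by the number of Col15a1 UMIs per cell after thinning to 1400 UMIs (x axis) for 6 genes in the NCD (blue) and HFD (red) libraries. Bars are exact Poisson 95% intervals, and Col4a1 runs from 662 to 1201 CPM (NCD) and from 405 to 1119 CPM (HFD) while Inmt runs down.

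The comparison of the libraries asked how Col15a1 cells from HFD-fed mice differed from those of NCD-fed mice. Of 8248 genes with at least 10 CPM in either library, 606 (7.35%) were at least 2-fold higher in HFD Col15a1 cells and 843 (10.2%) at least 2-fold lower. In the reference cells 556 (6.75%) and 992 (12%) of 8233 were. The median log2 ratio over all genes was -0.18 in Col15a1 cells and -0.27 in reference cells. Depth, free RNA and library preparation cannot be told apart from diet.

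The clearest stromal genes on the higher side were an inhibitor and a member of the metalloprotease family. Timp1 (chrX:20870166-20874735), the inhibitor of matrix metalloproteases, stood at 28.0 CPM (NCD) and 892 CPM (HFD) in Col15a1 cells, 31.9 times higher (24.4 to 42.4). Reference cells held 32.8 and 543 CPM, and macrophage cells 2.56 and 76.2 CPM. It was present in 48 of 440 NCD and 244 of 407 HFD Col15a1 cells, so it was spread over the cells of that library. Mmp3, stromelysin 1, stood at 14.2 and 336 CPM, 23.6 times higher (16.1 to 35.8), while reference cells held 48.9 and 302 CPM and macrophage cells 3.32 and 25.3 CPM. Mmp3 was found in 6 of 440 NCD cells (1.36%) and 119 of 407 HFD cells (29.2%, 24.9 to 33.9), or in 24.1% of HFD cells after thinning to 1400 UMIs. In HFD reference cells 25.4% (22.1 to 29.0) had it and in HFD macrophage cells 7.16%. Timp3, a matrix-bound inhibitor, was lower in the HFD library, at 438 and 103 CPM.

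Of 40 interstitial matrix genes compared, 9 were at least 2-fold higher in HFD Col15a1 cells, 3 lower and 28 within 2-fold, beside 7.35% higher and 10.2% lower over all genes, with a median of 0.25 beside -0.18 for all genes. Postn, periostin, a protein of remodelling connective tissue, stood at 101 and 692 CPM in Col15a1 cells, a log2 ratio of 2.78, and at 113 and 355 CPM in reference cells, a ratio of 1.65. It was present in 20.5% of NCD and 58.5% of HFD Col15a1 cells. Fbln7, an adhesion protein of the fibulin family, stood at 22.1 and 211 CPM, and Col8a1, a short-chain collagen, at 17.2 and 134 CPM. Reference cells held 20.6 and 202 CPM of Fbln7 and 14.2 and 89.5 CPM of Col8a1. Mgp, an inhibitor of calcification, stood at 795 and 4524 CPM, but reference cells held 1022 and 5210 CPM and macrophage cells 31.1 and 710 CPM. Tnc, tenascin C, had 0 UMIs in NCD and 32 in HFD Col15a1 cells, of which 24 came from 1 cell. Of 20 basement membrane genes, 1 was at least 2-fold higher, 5 lower and 14 within 2-fold, with a median of -0.49 beside -0.69 in reference cells. Col4a1 stood at 882 and 653 CPM, Hspg2 at 491 and 376 CPM, and Col4a2 at 523 and 501 CPM. The 2-fold lower genes included Smoc2, a calcium-binding matrix protein, at 870 and 239 CPM, Col4a5 at 68.3 and 16.9 CPM and Nid2 at 63.3 and 23.2 CPM. Lama2, a laminin chain of muscle, missed 2-fold, at 233 and 124 CPM. Col18a1 stood just short of 2-fold higher, at 71.7 and 141 CPM in Col15a1 cells, where reference cells held 68.2 and 61.4 CPM.

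**Figure D4:**
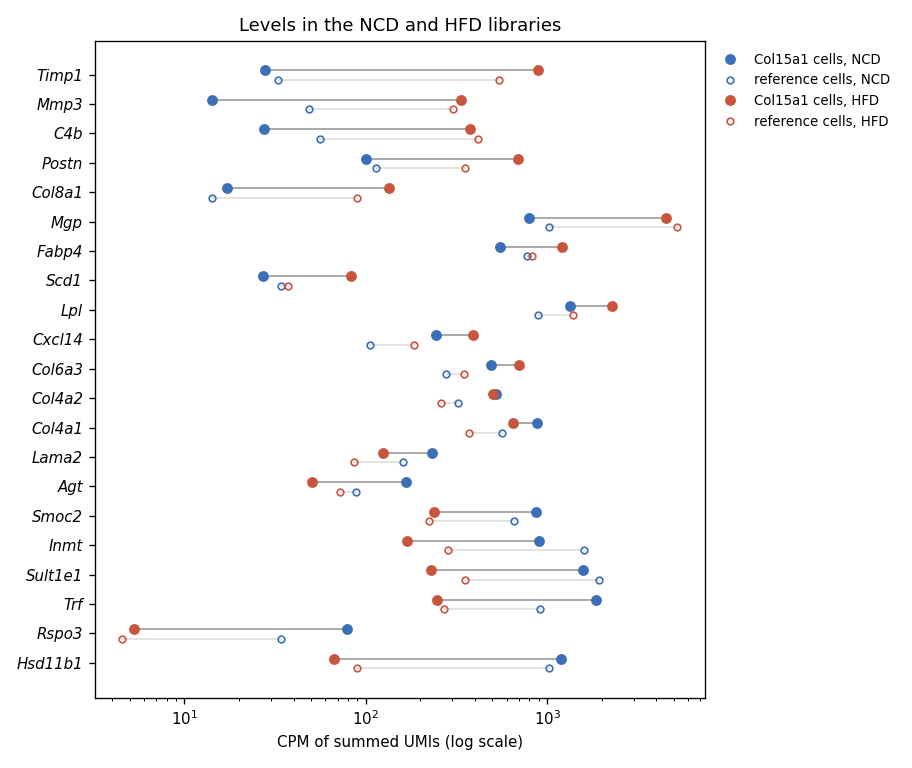
CPM of summed UMIs (x axis, log scale) for 21 genes in Col15a1 cells (filled) and reference cells (open) of the NCD (blue) and HFD (red) libraries. Timp1 runs from 28.0 to 892 CPM and Hsd11b1 from 1196 to 66.4 CPM in Col15a1 cells, and reference cells move the same way in both genes.

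Among the 12 ranked lower genes were enzymes of steroid handling and the carrier transferrin. Hsd11b1 (chr1:193221634-193264075), which activates glucocorticoids, stood at 1196 CPM (NCD) and 66.4 CPM (HFD) in Col15a1 cells, 18.0 times lower (14.03 to 23.5), with 1031 and 89.5 CPM in reference cells. Sult1e1 stood at 1568 and 229 CPM and Inmt at 906 and 170 CPM. Gsta3, a glutathione transferase, stood at 153 and 27.4 CPM. Cyp4b1, a fatty acid hydroxylase, was opposite, at 4.42 and 65.4 CPM. Of 29 genes on the list, 2 were at least 2-fold higher and 7 lower, with a median of -0.69 beside -0.59 in reference cells. Over all genes 7.35% were higher and 10.2% lower. Trf, transferrin, stood at 1850 and 246 CPM in Col15a1 cells, a log2 ratio of -2.91, and at 917 and 270 CPM in reference cells, a ratio of -1.77. Macrophage cells held 1488 and 1178 CPM of Trf. Agt, angiotensinogen, stood at 167 and 50.6 CPM in Col15a1 cells and 88.8 and 72.0 CPM in reference cells. Both genes were higher in Col15a1 than in reference cells in the NCD library alone.

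Signals, receptors and regulators on the lower side were of many kinds. Rspo3 stood at 79.1 and 5.27 CPM, a log2 ratio of -3.91, Nmb, neuromedin B, at 466 and 59.0 CPM, Penk, proenkephalin, at 1179 and 307 CPM and Bmp4 at 32.4 and 4.22 CPM. Reference cells held 34.1 and 4.55 CPM of Rspo3, 422 and 78.1 CPM of Nmb, and 1335 and 312 CPM of Penk. Fam150b, a ligand of the ALK receptor, stood at 151 and 12.7 CPM. P2ry1, a receptor for ADP, had 179 UMIs in NCD and 0 in HFD Col15a1 cells. It was 27.8-fold lower with the count of 0 set to 3 over the group (interval from 22.4-fold up). Smpd3, a sphingomyelinase, stood at 177 and 5.27 CPM, and at 244 and 15.9 CPM in reference cells. Gnai1, a G protein subunit, stood at 51.6 and 4.22 CPM and Ppl, periplakin, at 69.2 and 4.22 CPM. Cystm1 stood at 145 and 20.03 CPM and Fmo2 at 85.0 and 9.49 CPM. Procr, the protein C receptor of mesenchymal progenitors, stood at 65.3 and 24.2 CPM, and Gpc3, a cell-surface proteoglycan, at 244 and 72.7 CPM. Among transcription factors, Tcf21, a factor of visceral fat stroma, stood at 40.3 and 3.16 CPM and Twist2 at 101 and 40.1 CPM. Nfia, a factor of brown fat formation, was higher, at 279 and 970 CPM, but also in reference cells (350 and 1129 CPM) and macrophage cells (33.5 and 148 CPM). In these genes reference cells had the same direction as Col15a1 cells.

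Lipid and complement genes were mixed. Of 26 genes for lipid uptake and storage, 7 were at least 2-fold higher in HFD Col15a1 cells and 3 lower, with a median of 0.04. Over all genes 7.35% were higher and 10.2% lower. Scd1 stood at 27.0 and 83.3 CPM in Col15a1 cells and at 34.1 and 37.1 CPM in reference cells. Lpl stood at 1332 and 2278 CPM and Fasn, the fatty acid synthase, at 21.6 and 4.22 CPM. Cd36, a fatty acid transporter of endothelium and macrophages too, stood at 42.7 and 291 CPM, and at 990 and 1520 CPM in macrophage cells. Fabp5 stood at 26.5 and 94.9 CPM, and at 29.5 and 403 CPM in macrophage cells. C4b, the complement component, stood at 27.5 and 377 CPM, 13.7 times higher (10.3 to 18.5), with 56.0 and 416 CPM in reference cells, while macrophage cells held 266 and 132 CPM. Of 11 complement genes, 4 were at least 2-fold higher and 1 lower. Mdk, the growth factor midkine, stood at 24.6 and 181 CPM.

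Several leading genes on the higher side belong to immune cells. Cma1, Tpsb2 and Mcpt4 are mast cell proteases. Cma1 had 0 UMIs in NCD and 177 in HFD Col15a1 cells, 127-fold higher with the count of 0 set to 3 (interval from 102-fold up). But a UMI was present in 16.2% of HFD Col15a1 cells, 19.3% of HFD reference cells, 22.2% of HFD macrophage cells and 20.8% of all kept HFD cells. Tpsb2 stood at 0 and 140 CPM in Col15a1 cells and 0.128 and 87.3 CPM in macrophage cells, and Mcpt4 at 0.491 and 87.5 CPM beside 0.639 and 57.5 CPM. Cxcr4, Rgs1, Trem2 and Ctss stood at 85.4, 67.5, 84.3 and 159 CPM in HFD Col15a1 cells and at 197, 703, 1193 and 1748 CPM in HFD macrophage cells. Acp5 stood at 63.3 CPM in the first and 64.1 CPM in the second, and Ccl5 at 182 and 140 CPM. Of 15 macrophage genes, 14 were at least 2-fold higher in HFD Col15a1 cells, with a median log2 ratio of 2.89 beside 2.99 in reference cells. All 8 endothelial and all 7 lymphocyte genes compared were at least 2-fold higher too, beside 7.35% of all genes. After subtraction of free RNA 548 genes were at least 2-fold higher and 934 lower, beside 606 and 843. Genes whose level was above that in macrophage cells were ranked again after the values were seen. This list added C4b, Fbln7, Abhd2 (40.8 and 429 CPM), Slc39a1 (142 and 1011 CPM) and Bhlhe41 (13.3 and 123 CPM). Cma1, Tpsb2, Mcpt4 and Ccl5 stayed on it, so the filter did not remove all transcripts of immune cells. Reference cells held 43.8 and 459 CPM of Abhd2, 138 and 975 CPM of Slc39a1 and 9.66 and 78.1 CPM of Bhlhe41. Abhd2 and Slc39a1 were also higher in HFD macrophage cells, at 10.6 and 128 CPM and at 108 and 417 CPM.

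**Figure D5:**
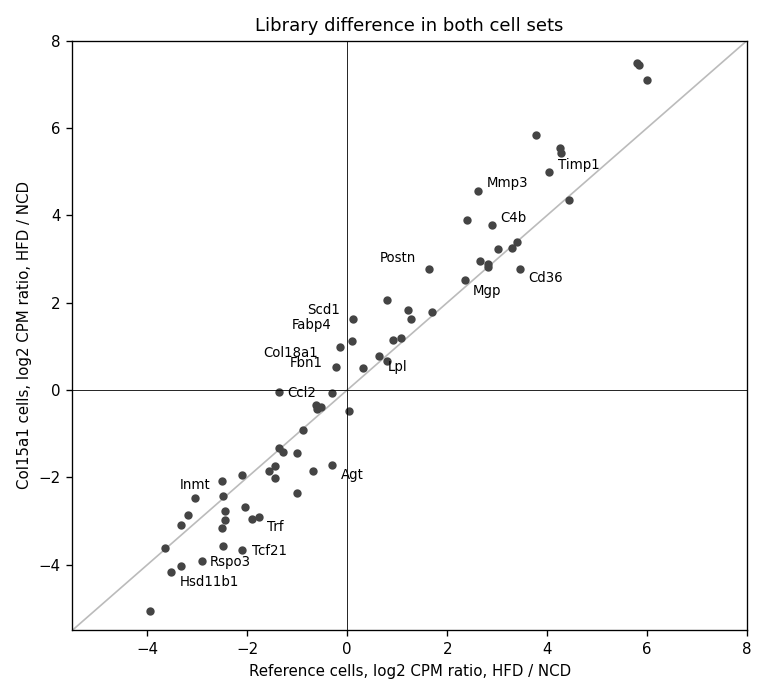
Log2 ratio of HFD over NCD CPM in reference cells (x axis) and Col15a1 cells (y axis) for 68 genes of the ranking and the gene lists, leaving out 4 with a count of 0 in Col15a1 cells of either library. The line marks equal ratios, Postn and Fabp4 lie above it, and Agt and Trf below it.

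The other lists gave the following counts between the libraries, as at least 2-fold higher and lower genes among those compared. Over all genes the shares were 7.35% higher and 10.2% lower. Growth factors and chemokines had 7 and 10 of 33, surface receptors 2 and 4 of 34, WNT, BMP and TGF modulators 5 and 3 of 20, and inflammatory fibroblast genes 7 and 4 of 21. Proteases and their inhibitors had 5 and 2 of 23, adipogenic transcription factors 1 and 4 of 24, and committed preadipocyte genes 6 and 3 of 23. Immediate early genes, which respond to tissue dissociation, had 0 and 1 of 23, with a median log2 ratio of 0.12, and hypoxia and glycolysis genes 1 and 3 of 20. Cell cycle genes had 3 and 0 of 8. Against reference cells the inflammatory fibroblast genes were higher in both libraries for 3 of 20 and lower for 10, and the immediate early genes higher for 4 of 23 and lower for 4. In that contrast 32.3% of all genes were higher in both libraries and 22.3% lower.

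Fabp4 and Ccl2 had unlike library differences in the Col15a1 and reference cells, which share no cell. The difference between the sets was not tested, and Ccl2 was named after its values were seen. Fabp4, a fatty acid carrier of adipocytes, endothelium and macrophages, stood at 553 CPM in Col15a1 and 778 CPM in reference cells of the NCD library, and at 1213 and 826 CPM in the HFD library. Thinned to 1400 UMIs, Fabp4 was present in 35.2% of Col15a1 and 38.7% of reference cells (NCD), and in 54.5% and 54.2% (HFD). Without thinning the shares were 57.5% and 51.8%, and 63.4% and 62.9%. Macrophage cells held 474 and 846 CPM. With the wider reference the NCD log2 ratio of Fabp4 over reference cells was 0.25 in place of -0.49. Ccl2, the monocyte chemokine, stood at 275 and 268 CPM in NCD and HFD Col15a1 cells and 444 and 172 CPM in reference cells, and 64 of the 254 UMIs of the HFD Col15a1 cells came from 1 cell. After thinning, the HFD log2 ratio of Ccl2 over reference cells was -0.39 in place of 0.64. Icam1, an adhesion molecule of committed preadipocytes, stood at 40.8 and 89.6 CPM in Col15a1 cells and 35.4 and 66.7 CPM in reference cells, 2.20 times higher (1.61 to 3.01) in the HFD library for the first and 1.88 times (1.33 to 2.69) for the second. Its ratio to reference cells had intervals that included 1 in both libraries.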

How the data were processed

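Single-cell UMI counts from 1 NCD and 1 HFD library were used as deposited by the authors. Per the submitters' processing notes, Cell Ranger, Seurat and the mouse build mm10 were used, with no version or role given. The lowest barcode that passed the filters held 1401 UMIs. Both tables hold the same genes in the same order. Repeated symbols were told apart by Ensembl identifier, and coordinates are from GENCODE vM21 (GRCm38).

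The members, lists, named-gene rule and alternatives were chosen with earlier results of these data known, and patterns of those results are no independent support. Counts were summed over cells of a set in a library and divided by the sum (CPM). Genes of the rule were left out of counts of genes. Genes were compared with at least 10 CPM in the higher set, in both libraries for Col15a1 over reference cells. A difference of at least 2-fold was called. Ratios used 3 in place of a count of 0. No test was run, since there was 1 library per diet. Intervals are exact at 95% and cover counting error only.

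Named genes had at least 50 CPM and a UMI in at least 10% of cells in the higher set. They were ranked by the interval end nearest 1 (the smaller of both libraries for the contrast within libraries), 12 each way, of which 1 is not reported here. The ranking passed over genes of mitochondria, ribosomes, haemoglobin and antigen receptors, predicted genes, Xist and Y-linked genes. Up to 6 members of each list with at least 20 CPM were added by size of log2 ratio, with Pdgfra, Lpl, Pparg, Mmp3, Fabp4, Icam1 and Col4a1. Ccl2, Fbn1 and Cxcl12, and Col4a2 and Hspg2 between the libraries, were named after their values were seen, as was the list ranked on levels above those of macrophage cells.

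Doublets were kept in the main analysis and removed as an alternative, with Scrublet at an expected rate of 5%. Its own threshold called 2.48% of NCD barcodes (182, with 2 Col15a1 cells) and 0% of HFD barcodes, where the 5% with the highest scores were taken (339, with 9 Col15a1 cells). Free RNA was the median of 8 macrophage genes as a percentage of their library level. It was subtracted in that proportion as an alternative for the comparison of the libraries, and not for Col15a1 over reference cells. Other alternatives moved the Col15a1, stromal, depth, gene and C1q thresholds, the reference, the averaging and the filter. The code was tested on simulated counts. Python 3.11.15, numpy 2.4.6, scipy 1.17.1, pandas 2.3.3, scanpy 1.11.5 and matplotlib 3.10.9 were used.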

Additional observations from a re-analysis of the deposited data

Results flagged for a closer look

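Genes are given here where counting intervals excluded 1 in opposite directions in 2 sets of cells. With 1 library per diet none of these differences was tested. The log2 ratio of Col15a1 cells over reference cells was -0.49 (NCD) and 0.55 (HFD) for Fabp4, -0.69 and 0.64 for Ccl2, -0.43 and 0.32 for Fbn1, the gene of fibrillin 1, and 0.43 and -0.21 for Cxcl12, a stromal chemokine. In each gene 1 side changed sign under an alternative, so the opposite directions were lost: with the wider reference Fabp4 (NCD) was at 0.25, Fbn1 (HFD) at -0.43 and Cxcl12 (HFD) at 0.12, and after thinning Ccl2 (HFD) was at -0.39. The log2 ratio of HFD over NCD for Fbn1 was 0.53 in Col15a1 cells and -0.22 in reference cells. Fbn1 stood at 285 and 412 CPM in NCD and HFD Col15a1 cells and at 383 and 330 CPM in reference cells, and Cxcl12 at 371 and 380 CPM and at 275 and 440 CPM.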

How the results depend on the processing

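No paired analysis was possible because each diet has 1 library. The log2 ratio of the shares of Col15a1 cells ran from -0.16 to 0.23 over 7 alternatives, each within the counting interval of the first value. The shares themselves were 8.98% (NCD) and 10.0% (HFD) at a Col15a1 minimum of 0.1%, and the HFD share was 28.9% in cells with at least 2000 UMIs and 38.0% at a stromal gate of 3%. The 27 genes past 2-fold against reference cells became 115 at a Col15a1 minimum of 0.1%, 15 after thinning to 1400 UMIs, 56 with at least 2000 UMIs, 52 with minimum genes of 1000 and a mitochondrial limit of 10%, 62 with the C1q genes at 0, 74 with the wider reference, 13 by the mean of per-cell CPM, 3 at a minimum of 50 CPM, 85 at a minimum of 10 UMIs, 14 without mesothelial markers in the reference and 175 at 1.5-fold. At a stromal gate of 3% there were 35, of which 24 were higher and 11 lower in place of 10 and 17. Of the 27 genes, 4 were shared at that gate and 4 after thinning. The 1449 genes past 2-fold between libraries became 2325 at a Col15a1 minimum of 0.1%, 376 at 50 CPM and 3067 at 1.5-fold. The last 2 settings change the genes or the threshold by construction, and the cause of the other moves was not tested. The mesothelial filter and the 1.5-fold threshold were chosen after the data were seen. Over reference cells, 13 of 61 genes with values in the text changed sign under at least 1 alternative in the NCD library and 16 of 61 in the HFD library. Of those past 2-fold, the log2 ratio turned at a stromal gate of 3% for Cxcl2 (0.39), Sfrp2 (1.30) and Slpi (0.16) in the NCD library and for Clu (1.12) in the HFD library, and without mesothelial markers for Clu in the NCD library (0.020) and Slpi in the HFD library (1.85). With the wider reference Inmt (0.39), Sult1e1 (0.62), Cst3 (0.36) and Fabp4 (0.25) turned in the NCD library. Between libraries 3 of 72 changed sign (Ccl2, Col4a2 and Cxcl14), none of them past 2-fold. The HFD library's 1844 UMIs per cell limit what can be said of rare transcripts such as Pparg.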
